A study of Mus musculus with 10 samples.

Results

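The genes described are 10 components of the basement membrane, measured in haematopoietic stem cells (HSCs) of mice that carry an inducible Sox17 transgene and of wild-type littermates. They are the matricellular gene Sparc, the type IV collagen genes Col4a1 and Col4a2, the laminin chain genes Lama1, Lama4, Lamb1 and Lamc1, the nidogen genes Nid1 and Nid2, and the perlecan gene Hspg2. The list was set by gene function, with earlier results of these data known. Each gene was read from the probe set that the platform annotation assigns to it alone. All 10 had 1 such probe set, among 19938 genes with a probe set of their own.

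A basement membrane is a thin sheet of matrix under epithelium and endothelium and around muscle and fat cells. Laminin trimers and type IV collagen each form a network in it, and nidogens and perlecan link them. SPARC, a calcium-binding glycoprotein also called osteonectin, binds type IV collagen and is needed for its normal deposition. In bone marrow the sinusoids rest on a discontinuous basement membrane, and HSCs carry integrin receptors for laminin. Sparc itself is also known from bone-forming cells, endothelium, platelet granules and parietal endoderm, an extraembryonic tissue that lays down a thick basement membrane.

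Each group had 5 arrays. The transgenic mice carried (tetO)7CMVSox17-IRES-NucEGFP, a tetracycline-responsive Sox17 construct with a nuclear green fluorescent protein, together with the allele Gt(ROSA)26Sortm1(rtTA*M2)Jae of a B6.Cg stock, which supplies the doxycycline-dependent activator from the Rosa26 locus. The controls are labelled wild type and littermates, with no further genotype. Mice of both groups were 8 weeks old and had drunk water with 2 mg/ml doxycycline for 5 days. From their bone marrow 10000 cells per aliquot were sorted as CD150+, CD48-, lineage-, Sca1+ and cKit+. The Rosa26 locus is active in many cell types, so induction was not restricted to HSCs by the design. The labels name the aliquots independent but give no animal for any of them, and a p-value here therefore covers the spread of these aliquots, some of which may be technical.

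Levels are log2 values from robust multi-array averaging (RMA), and a difference of 1 is a doubling. A call is an adjusted p under 0.05 in limma over all 23410 probe sets, which 33 probe sets passed (0.141%). The Sox17 probe set differed by 0.16 (SE 0.09, adjusted p = 0.855), so the direction of each difference rests on the arrays' labels. The arrays also fell into a set A (transgenic arrays 1, 2 and 3, wild-type arrays 1 and 2) and a set B (the other 5), split on these values by the sign of principal component 1 after each group was centred, which held 40.1% of the variance. Transgenic array 4 alone read low for Xist, at 4.32, where the other 4 of its group read 10.80 to 11.40. Of 11 measured HSC marker genes all 11 were brighter than the median probe set, and their mean level was 8.52 to 8.61 on the transgenic and 8.35 to 8.62 on the wild-type arrays. In RNA from sorted aliquots, fewer cells of a type and less RNA per cell cannot be told apart.

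Sparc had the largest difference of the 10 genes, and it did not pass the threshold. Its level was 6.90, 6.67, 8.00, 7.16 and 5.83 on transgenic arrays 1 to 5 and 5.31, 5.43, 5.19, 5.46 and 5.47 on wild-type arrays 1 to 5. Every transgenic array lay above every wild-type array, array 3 highest and array 5 closest to the controls. The means were 6.91 ± 0.79 and 5.37 ± 0.12 (SD, n = 5 each), a log2 difference of 1.54 (SE 0.31, 95% interval 0.86 to 2.22), or 2.91-fold (1.82 to 4.65). The limma p was 0.000394, number 80 in order of size, and the adjusted p was 0.115. The fit gives both groups a common variance, so this p and the interval do not allow for their unequal SDs. Groups without overlap were found for 1.47% of all tested probe sets, and for 0.876% with the transgenic arrays higher.

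The spread of Sparc lay in the transgenic group. Its transgenic levels spanned 2.17 log2 units and its wild-type levels 0.28, with a gap of 0.36 between the groups. The wild-type mean of 5.37 lay below the median level of all tested probe sets, 5.81, and RMA compresses differences among low values. Within array set A the difference was 1.82, and within set B it was 1.12, on 5 arrays each. Without transgenic array 5 the difference was 1.81 (SE 0.23) and passed the threshold (limma, adjusted p = 0.0179). Without transgenic array 3, the highest, it was 1.27 (SE 0.23, adjusted p = 0.114), and without transgenic array 4, the array low for Xist, it was 1.48 (adjusted p = 0.266).

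**Figure D1:**
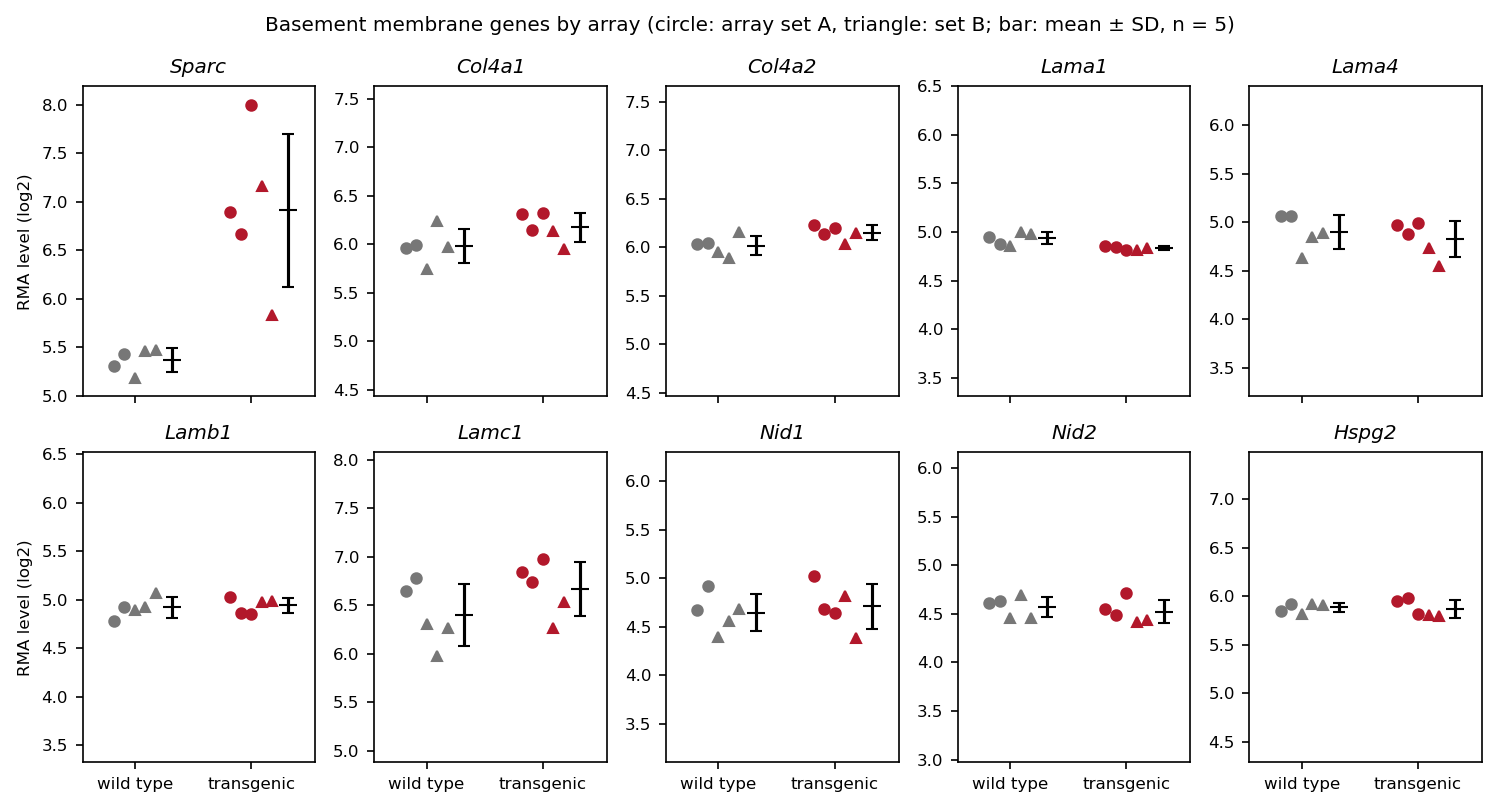
RMA level (log2) of each of the 10 genes on the wild-type (grey) and transgenic (red) arrays, with circles for array set A, triangles for set B and bars for the mean ± SD of 5 arrays; every panel spans the same number of log2 units. The Sparc panel shows transgenic arrays from 5.83 to 8.00 above wild-type arrays from 5.19 to 5.47, while the groups of the other genes lie at nearly the same height.

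The bases upstream of Sparc are shown because it was the member with the largest difference. RefSeq's promoter table (build GRCm38.p6) held windows for 6 of the 10 genes, from 250 bases before to 50 after the annotated start; Lama1, Lama4, Lamc1 and Nid2 had none. The 250 bases before the Sparc start lie at chr11:55420081-55420330 on the minus strand and are written 5′ to 3′, with a run of 18 alternating C and T bases in capitals.
Sparc upstream: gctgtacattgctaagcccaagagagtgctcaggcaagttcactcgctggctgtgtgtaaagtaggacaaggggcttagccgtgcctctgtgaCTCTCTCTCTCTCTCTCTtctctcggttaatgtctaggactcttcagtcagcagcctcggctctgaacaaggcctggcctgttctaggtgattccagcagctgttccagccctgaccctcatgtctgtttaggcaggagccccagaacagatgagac

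The Sparc window held 4 CpG dinucleotides in its 300 bases, against 37 for Col4a1, 33 for Col4a2, 18 for Lamb1, 20 for Nid1 and 27 for Hspg2, with a median of 7 over all 32851 windows. Both strands were searched for 3 motifs. The letters ACAAT, the core that SOX proteins bind, were in 0 of the 6 windows and in 31.0% of all windows. GGGCGG, the GC box, was absent from the Sparc window, present in the other 5 and found in 35.7% of all windows. CCAAT was in the windows of Col4a1, Col4a2, Lamb1 and Nid1 and in 37.4% of all windows. These matches describe the letters of the windows and say nothing of binding.

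The type IV collagen genes Col4a1 and Col4a2 encode the chains of the trimer found in nearly all basement membranes. Col4a1 read 6.31, 6.15, 6.32, 6.14 and 5.95 on transgenic arrays 1 to 5 and 5.96, 5.99, 5.74, 6.24 and 5.97 on the wild-type arrays. The groups overlapped, with wild-type arrays 1, 2, 4 and 5 inside the transgenic range and wild-type array 3 below it. The log2 difference was 0.19 (SE 0.11, 95% interval -0.04 to 0.43, limma adjusted p = 0.841).

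Col4a2 read 6.23, 6.13, 6.20, 6.03 and 6.14 on the transgenic arrays and 6.03, 6.04, 5.95, 5.89 and 6.15 on the wild-type arrays. Here wild-type arrays 2 and 5 lay inside the transgenic range, and wild-type array 4 was the lowest of all. The log2 difference was 0.14 (SE 0.07, 95% interval -0.03 to 0.30, limma adjusted p = 0.840). Both intervals lie below the interval of Sparc. In set A the collagen differences were 0.29 for Col4a1 and 0.16 for Col4a2, and in set B they were 0.06 and 0.09.

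Col4a1 and Col4a2 are neighbours transcribed in opposite directions from a shared promoter, which is why their start region is shown. In the RefSeq table the start of Col4a2 is base 11312805 on the plus strand and that of Col4a1 is base 11312826 on the minus strand, so their 300-base windows share 78 bases and their motif counts are not independent. The 22 bases from one start to the other lie downstream of both starts, where the annotated transcripts overlap. The plus strand at chr8:11312801-11312830 reads as follows, with these 22 bases in capitals.
Col4a2 and Col4a1 starts: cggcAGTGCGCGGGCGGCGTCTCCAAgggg

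Laminins are trimers of an alpha, a beta and a gamma chain. Lamc1 encodes the gamma chain of most laminins and had the second largest difference, which was not called. It read 6.84, 6.74, 6.98, 6.27 and 6.53 on the transgenic arrays and 6.65, 6.78, 6.31, 5.98 and 6.27 on the wild-type arrays. The groups overlapped over much of their range, and the arrays of set A were the high ones in both groups. The log2 difference was 0.27 (SE 0.17, 95% interval -0.10 to 0.65, limma adjusted p = 0.893). Set A averaged 0.49 above set B with the group taken into account, against 0.14 and 0.21 between the groups within the sets.

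Lamb1, the beta chain that pairs with Lamc1 in the common laminins, read 4.86 to 5.03 (median array at 4.98) on the transgenic and 4.78 to 5.07 (median array at 4.93) on the wild-type arrays. The transgenic range lay wholly inside the wild-type range. The log2 difference was 0.02 (SE 0.08, 95% interval -0.14 to 0.19, limma adjusted p = 0.992).

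Both alpha chain genes read below the median probe set. Lama1, the alpha chain of embryonic basement membranes and parietal endoderm, read 4.86, 4.85, 4.81, 4.81 and 4.84 on the transgenic arrays and 4.95, 4.88, 4.86, 5.00 and 4.98 on the wild-type arrays. The transgenic arrays lay below the wild-type arrays by a gap of only 0.01, and the log2 difference was -0.10 (SE 0.06, 95% interval -0.24 to 0.04, limma adjusted p = 0.892). Lama4, the alpha chain typical of endothelium and of mesenchymal cells, read 4.97, 4.88, 4.99, 4.73 and 4.55 against 5.06, 5.06, 4.63, 4.85 and 4.89. These groups overlapped, with transgenic array 5 the lowest of the 10 and wild-type arrays 1 and 2 the highest. The difference was -0.07 (SE 0.11, 95% interval -0.32 to 0.18, adjusted p = 0.974). Set A averaged 0.29 above set B for Lama4.

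The nidogens link laminin to type IV collagen. Nid1 read 5.02, 4.68, 4.64, 4.82 and 4.38 on the transgenic and 4.67, 4.92, 4.39, 4.56 and 4.68 on the wild-type arrays. The wild-type range lay wholly inside the transgenic range. Its log2 difference was 0.07 (SE 0.13, 95% interval -0.22 to 0.35, limma adjusted p = 0.984). Nid2 read 4.42 to 4.72 on the transgenic and 4.46 to 4.70 on the wild-type arrays, again one range inside the other, with a difference of -0.05 (SE 0.08, adjusted p = 0.979).

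Perlecan, the large heparan sulphate proteoglycan encoded by Hspg2, read 5.95, 5.98, 5.81, 5.80 and 5.79 on the transgenic and 5.85, 5.92, 5.82, 5.92 and 5.91 on the wild-type arrays. The wild-type arrays lay within the transgenic range. The log2 difference was -0.02 (SE 0.07, 95% interval -0.17 to 0.13, limma adjusted p = 0.992).

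Apart from Sparc, the 9 structural genes differed by -0.10 to 0.27 log2 units, 5 of them upward and 4 downward, with adjusted p of 0.840 to 0.992. Their 95% intervals reached from -0.32 at the lowest to 0.65 at the highest, so a difference as large as the lower bound of Sparc, 0.86, lay outside each of the 9. RMA compresses differences among low values. Averaged over all arrays, 5 of the 10 genes, both alpha chains, Lamb1 and both nidogens, read below the median probe set. Sparc did so in the wild-type group only. Over all 10 the median log2 difference was 0.04, against -0.01 over all tested probe sets. The threshold was passed by 0 of 10 genes (limma), with the background of 0.141%, and an unadjusted p under 0.05 was found for 1, Sparc, with a background of 6.59%.

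**Figure D2:**
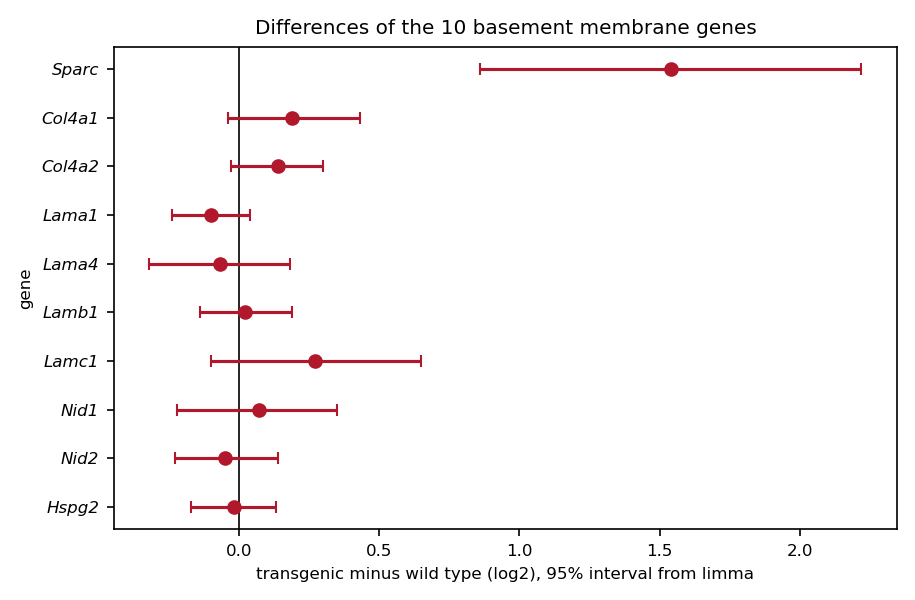
Transgenic minus wild-type difference (log2, horizontal axis) of each gene with its 95% interval from limma, 5 arrays against 5. The interval of Sparc runs from 0.86 to 2.22, and the other 9 intervals contain 0 and end at or below 0.65.

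The remaining genes of the basement membrane were read from lists of related genes. Of 26 measured other structural genes, among them further type IV collagen and laminin chains, agrin, netrins, fibulins and the collagens XV and XVIII, 0 passed the threshold (limma) and 1 had an unadjusted p under 0.05, with a median log2 difference of 0.02. That 1 was Lama3, an alpha chain of epithelial laminins, which read 4.73, 4.73, 5.56, 6.09 and 4.95 on the transgenic and 4.43 to 4.80 on the wild-type arrays (0.57, SE 0.24, adjusted p = 0.716). Transgenic arrays 3, 4 and 5 lay above all wild-type arrays, and arrays 1 and 2 among them. Lamb2, a beta chain, differed by 0.17 and Frem1, a protein of the epithelial sublamina, by 0.12 (adjusted p = 0.903 and 0.897).

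The relatives of SPARC, which share its extracellular calcium-binding domain, had a median difference of -0.02 over 7 measured genes, with 0 past the threshold (limma). The follistatin-like gene Fstl1 alone had an unadjusted p under 0.05. It read 7.42, 6.32, 7.01, 7.00 and 5.89 on the transgenic and 6.28, 5.79, 6.18, 6.40 and 6.19 on the wild-type arrays (0.56, SE 0.25, adjusted p = 0.758). Transgenic arrays 1, 3 and 4 were high, and arrays 2 and 5 fell among the controls. Smoc1 and Spock2 differed by 0.04 and -0.15.

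Of 15 receptors for basement membrane proteins 0 passed (limma), and the median difference was 0.03. Itga2, the alpha chain of a collagen and laminin receptor, read 6.62, 7.63, 6.95, 6.52 and 6.75 on the transgenic and 6.22, 6.16, 5.69, 6.22 and 6.63 on the wild-type arrays. Transgenic array 2 was the highest, and wild-type array 5 overlapped the transgenic range. Its log2 difference was 0.71 (SE 0.22, adjusted p = 0.426). Itga6, the alpha chain of the laminin receptor of HSCs, differed by 0.18 (SE 0.13, adjusted p = 0.928), its partner Itgb1 by 0.18 (SE 0.14, adjusted p = 0.928), and the proteoglycan Sdc3 by -0.15 (adjusted p = 0.926).

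Collagen folding and crosslinking enzymes had 0 of 16 measured genes past the threshold (limma), with a median difference of 0.03. The lysyl hydroxylase Plod3, which also glycosylates type IV collagen, differed by 0.45 (SE 0.20, adjusted p = 0.733), with transgenic arrays from 6.30 to 7.17 and wild-type arrays from 5.72 to 6.63. Mia3, a protein of collagen export from the endoplasmic reticulum, differed by 0.17 and the prolyl hydroxylase P4ha3 by 0.16 (adjusted p = 0.799 and 0.869). In the interstitial matrix, which forms outside basement membranes, 0 of 19 measured genes passed and 0 had an unadjusted p under 0.05 (limma). Vtn, Fn1 and Col1a2 had the smallest p among them, with differences of 0.14, 0.13 and -0.15.

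Among 16 measured genes of matrix remodelling 0 passed (limma). Positive differences were found for 13, against 46.3% of all tested probe sets, and an unadjusted p under 0.05 for 3, all upward, against 6.59%, and the median was 0.11. Timp3, a metalloproteinase inhibitor that stays bound to matrix, read 7.79, 6.29, 8.03, 7.77 and 6.93 on the transgenic and 6.48, 6.00, 6.00, 6.63 and 6.18 on the wild-type arrays. Transgenic array 2 lay among the controls and the other 4 above them. Its log2 difference was 1.10 (SE 0.30, adjusted p = 0.329). Without transgenic array 2, its own lowest transgenic array, it was 1.37 (SE 0.22) and passed (adjusted p = 0.0403). Leaving out any other single array gave an adjusted p of 0.263 to 0.661. The fits that kept all arrays gave 0.179 to 0.571. The related inhibitor Timp2 differed by 0.46 (SE 0.17, adjusted p = 0.601), and the protease Adamts1 by 0.39 (SE 0.17, adjusted p = 0.729). The cathepsin Ctsl differed by 0.52 (SE 0.24, adjusted p = 0.763). In a fit with the array set as a block it differed by 0.68 (SE 0.08) with an adjusted p of 0.00514, but the sets were split on these same values, which lowers the residual spread by construction. Within set A its adjusted p was 0.141 and within set B 0.399; the gene was singled out after its values were seen.

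The pattern of Sparc over the arrays was closest to genes outside the 10. Likeness was taken as the mean absolute difference between 2 genes' levels over the 10 arrays, each gene first centred on its own mean, over 17070 named genes with a median of 0.84 log2 units. This measure weighs the difference between the groups as well as the differences among arrays. The 5 closest were the phosphodiesterase Pde7b (0.18), the membrane-type metalloproteinase Mmp16 (0.22), the tight junction scaffold Tjp1 (0.26), the lysosomal protease Ctsh (0.27) and the leucine-rich repeat membrane protein Lrrn1 (0.30). Mmp16 read 7.18, 6.34, 8.27, 7.07 and 6.07 on the transgenic and 5.43, 5.48, 5.24, 5.26 and 4.93 on the wild-type arrays. As for Sparc, transgenic array 3 was the highest and array 5 the lowest of its group. The 5 genes were picked for likeness to Sparc on these same arrays, so a similar order and similar group differences were favoured by the choice. The log2 differences were 1.51 for Pde7b, 1.72 for Mmp16, 1.64 for Tjp1, 1.57 for Ctsh and 1.34 for Lrrn1, with limma adjusted p of 0.0515 to 0.446. Timp3 was number 19 in likeness (0.37) and Fstl1 number 132 (0.53), while the 9 other basement membrane genes lay between 0.69 (Lamc1, number 1045) and 0.87 (Lama1, number 11937), with Col4a1 at number 1311 and Nid1 at number 2007.

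**Figure D3:**
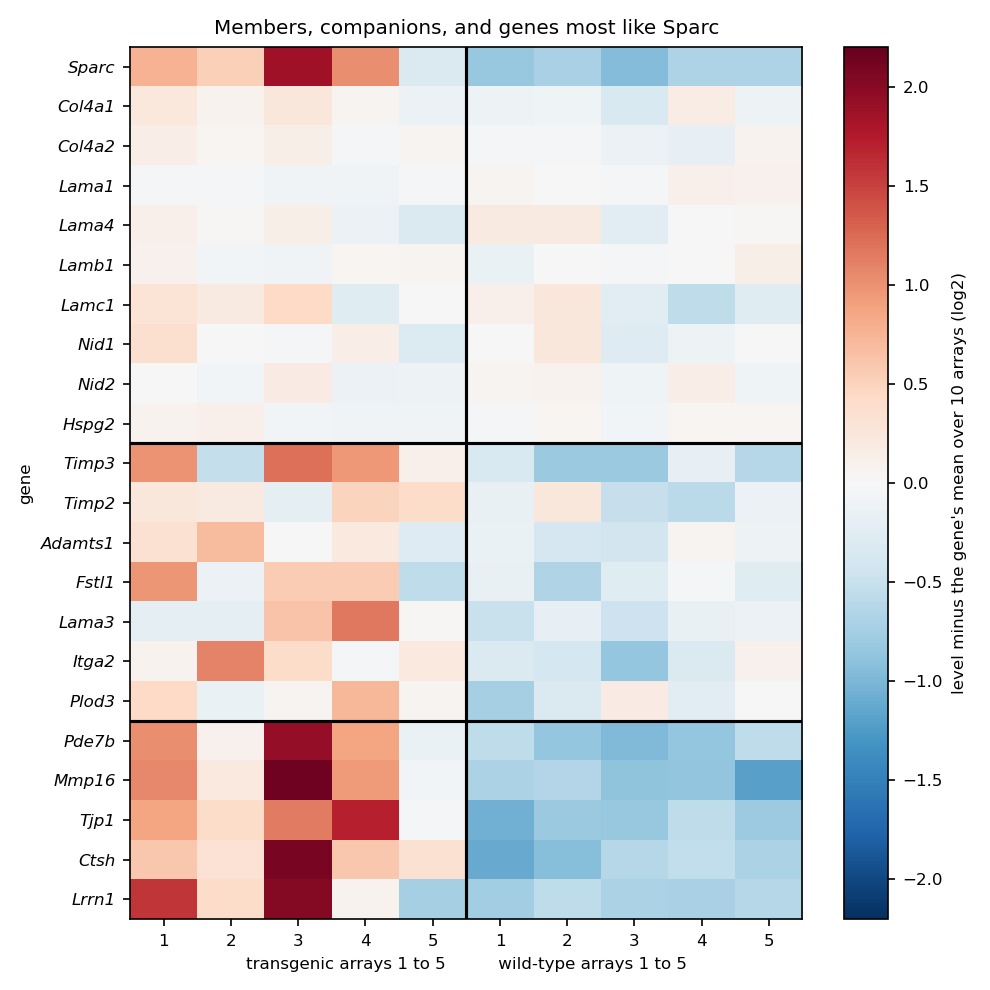
Level of each gene minus its mean over the 10 arrays (log2, colour) on transgenic arrays 1 to 5 and wild-type arrays 1 to 5, with the 10 members on top, 7 related matrix genes in the middle and the 5 genes most like Sparc at the bottom. Sparc, Pde7b, Mmp16, Ctsh and Lrrn1 are darkest on transgenic array 3 and Tjp1 on array 4. The collagen, laminin, nidogen and perlecan rows among the 10 members stay pale throughout, unlike the laminin gene Lama3 in the middle block.

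Markers of other cells were read beside Sparc. The 15 endothelial markers had a mean level of 6.36 to 6.76 on the transgenic and 6.05 to 6.22 on the wild-type arrays, without overlap. Of the 15 genes 11 had positive differences, as did 46.3% of all tested probe sets, and 0 passed the threshold (limma). An unadjusted p under 0.05 was found for 6 (6.59% of all tested probe sets) and groups without overlap for 5, all with the transgenic arrays higher (0.876%). Pecam1, an adhesion molecule of endothelium that HSCs also carry, differed by 0.68 (SE 0.12, adjusted p = 0.0591), the phosphatase Ptprb by 0.58 (SE 0.11, adjusted p = 0.0986) and von Willebrand factor, Vwf, by 1.28 (SE 0.25, adjusted p = 0.110). Cdh5, the cadherin of endothelial junctions, had the largest difference of the list, 1.48 (SE 0.40, adjusted p = 0.305), with transgenic arrays from 5.58 to 7.70 above wild-type arrays from 4.58 to 5.36. The endothelial receptors Kdr and Flt1 and the sinusoidal genes Plvap and Stab2 differed by -0.04, -0.08, -0.01 and -0.02. They read below the median probe set, as did Ptprb and Cdh5 (mean level 4.95 and 5.73 over all arrays). Of the 15 genes 9 were brighter than the median probe set. Emcn, Tie1, Eng, Esam and Tek averaged 8.20, 7.68, 7.26, 7.00 and 6.99 on the wild-type arrays. The list's mean level cannot tell endothelial cells from transcripts of the sorted HSCs themselves. The part of endothelial transcripts in the Sparc difference was not tested.

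Most megakaryocyte markers had negative differences, 1 of which was called. The list's mean level was 5.91 to 6.20 on the transgenic and 6.41 to 6.91 on the wild-type arrays. Of 9 measured genes 8 had negative differences and 1 a positive one, while 46.3% of all tested probe sets were positive. An unadjusted limma p under 0.05 was found for 6 downward and 1 upward (6.59% of all tested probe sets). The groups did not overlap for 2, Pf4 and Gp5, both lower (1.47% in both directions). The platelet chemokine Pf4 fell by 2.53 on the log2 scale (SE 0.32, limma adjusted p = 0.0112) and was the 1 gene of the list past the threshold, as were 0.0214% of all tested probe sets in that direction, while Gp5 and Ppbp differed by -1.08 and -0.97 (adjusted p = 0.132 and 0.200). Itgb3, an integrin chain of platelets, was the 1 member with a positive difference (0.60, SE 0.23, adjusted p = 0.600), and Tubb1 and Clec1b differed by -0.10 and -0.02.

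All 13 measured stromal markers read below the median probe set, with a mean level of 4.20 to 4.33 on the transgenic and 4.21 to 4.43 on the wild-type arrays. Their differences ranged from -0.18 to 0.22, and Pdgfrb (0.22), Acta2 (-0.13) and Sp7 (-0.11) had the smallest p. Of 9 measured parietal endoderm markers 8 read below the median probe set and 0 were called (limma); Thbd, Foxa2 and Afp differed by -0.43, -0.19 and -0.13 (adjusted p = 0.432, 0.695 and 0.928), and the list's mean level was 5.08 to 5.25 against 5.19 to 5.33. The granulocyte and monocyte list was highest on transgenic array 5, where Sparc was lowest in its group: its mean level was 6.15 there, 5.21 to 5.61 on its 4 fellows and 4.98 to 5.27 in the controls, over 13 measured genes of which 0 were called (limma). S100a8, a calcium-binding protein of granulocytes, read 7.92 on that array and 4.39 to 5.97 on its fellows. Mpo, a granule enzyme, read 8.63 there and 5.41 to 6.93 on the fellows, and Ctsg, a granule protease, 6.53 and 4.11 to 5.03. Not all of the list followed: Lyz2 (8.57), Cd14 (4.57) and Ltf (3.74) were lowest of the group on array 5. Between the groups 12 of the 13 genes had positive differences, against 46.3% of all tested probe sets, and the median was 0.32. S100a8 and Mpo differed by 1.24 and 0.84 (limma adjusted p = 0.771 and 0.866). Lyz2 and Cd14 differed by 0.36 and 0.30 (adjusted p = 0.455 and 0.788). Lyz2 was the 1 gene with an unadjusted p under 0.05 (6.59% of all tested probe sets). It was also the 1 gene whose groups did not overlap, with the transgenic arrays higher (0.876%). The part of these transcripts in the Sparc level of array 5 was not tested.

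Among the HSC markers 0 of 11 were called (limma). Procr, a surface receptor of HSCs, differed by 1.08 (SE 0.27, adjusted p = 0.247) with groups that did not overlap, Kit by -0.47 (SE 0.12, adjusted p = 0.248) and the transcription factor Mecom by 0.33 (SE 0.10, adjusted p = 0.383).

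**Figure D4:**
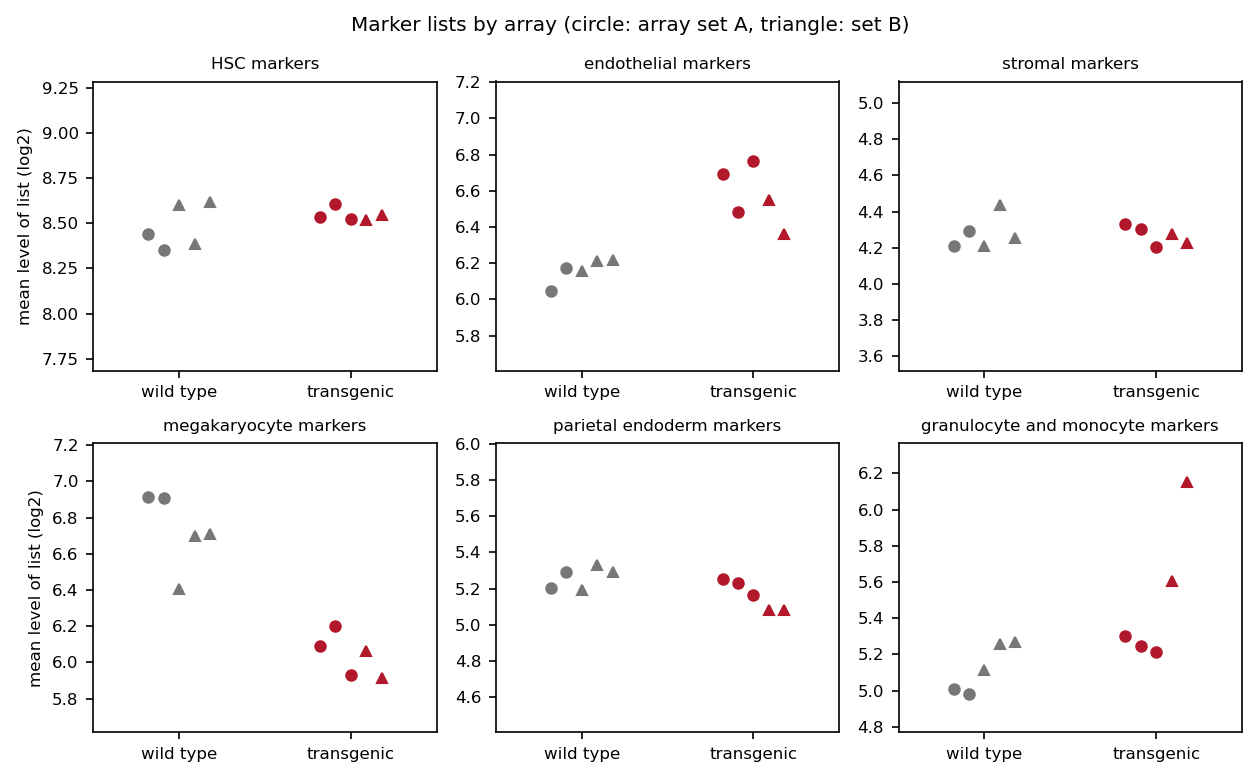
Mean RMA level (log2) of each marker list on the wild-type (grey) and transgenic (red) arrays, circles for array set A and triangles for set B; every panel spans the same number of log2 units. The endothelial panel is higher on the transgenic arrays (6.36 to 6.76 against 6.05 to 6.22), the megakaryocyte panel lower (5.91 to 6.20 against 6.41 to 6.91), and the stromal panel overlaps.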

How the data were processed

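The values used are log2 levels that the authors deposited for 35556 probe sets on 10 Affymetrix Mouse Gene ST arrays. Per the submitters' processing notes they come from RMA, with affy and limma also named, and versions, settings and genome build not given in the sources used here. This method removes background, equalises the arrays' intensity distributions and summarises probes. The values were used as they stand. Arrays have no read depth, and their number limits the precision.

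The annotation gives 1 symbol to 21789 probe sets, several to 1621 and, here, none to 12146; 21698 of the 21789 were found in RefSeq by Entrez identifier, and 0 symbols differed. A gene was read from its brightest one-gene probe set. The 23410 named probe sets were fitted with limma 3.58.1 in R 4.3.3 (lmFit, eBayes, two-sided, Benjamini-Hochberg), tested on simulated data.

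Members and lists were chosen with earlier results of these data known. Of 180 list entries 169 were measured. Named genes are the members, in each list those past the threshold and the 3 with the smallest p, and the 5 most like Sparc; a few others are named for their role. Alternatives were another normalization, filter, floor, variance model, weights, threshold, blocks for replicate number and array set, and leaving out each array.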

Additional observations from a re-analysis of the deposited data

Results flagged for a closer look

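An array stood apart from the other 4 of its group, by the gap to its nearest neighbour relative to the group's range, in 5 of 102 groups examined (51 genes, both groups), and chance gives about 1 in 20. Ctsh read 8.50 on transgenic array 3, and the next highest transgenic array read 7.00. Sparc and Mmp16 were highest on the same array, but Ctsh and Mmp16 had been picked for their likeness to Sparc on these arrays. Transgenic array 2 was apart for Itga6, the laminin receptor chain, at 8.42 with the others from 8.59 to 8.63, for Lyz2 at 9.08 with the others up to 8.70, and for Afp at 5.30 with the others up to 5.06. Frem1 read 3.79 on wild-type array 1 and 3.97 to 4.02 on the other wild-type arrays. None of the 10 basement membrane genes had such an array.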

How the results depend on the processing

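Sparc kept its direction under all 22 alternatives, from 1.12 to 1.82, and stayed short of the threshold except without transgenic array 5; leaving out 1 array in turn gave 1.27 to 1.81 (limma adjusted p of 0.0179 to 0.266), and 0 to 1 members and 0 to 1 related matrix genes called. With the array set as a block 1 related matrix gene was called, Ctsl, against 0 with no block; without transgenic array 2 it was Timp3. The closest the alternatives that kept all arrays came for Sparc was an adjusted p of 0.0737 among brighter probe sets, 0.0817 with the array set as a block, 0.0868 with probe sets averaged per gene and 0.0898 with array weights; it was 0.256 with unnamed probe sets also tested and 0.317 with a floor at the 20th percentile. Lamb1, Nid1 and Hspg2, with differences near 0, changed sign under 1, 2 and 1 of their alternatives without being called. Every member had 1 probe set, so averaging probe sets changed only the number of genes tested. Of the 23410 named probe sets 33 were called, against 8 with the floor, 15 when all 35556 were tested, 91 with the array set as a block, 4 and 6 within sets A and B, 7 and 68 at thresholds of 0.01 and 0.10, and 15 to 71 without 1 array. The labels do not say whether the replicate numbers pair the samples. Deviations of same-numbered arrays correlated at -0.14 to 0.347. Of the transgenic arrays 0 of 5 matched their own number best, and of the wild-type arrays 1 did. These correlations cannot settle a pairing, since the deviations also carry the split into array sets. With the replicate block Sparc differed by 1.54 (adjusted p = 0.159) and 33 probe sets were called. The number of arrays and the compression of low RMA values limit what can be seen of the dim genes.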
